A study of Mus musculus with 12 samples.

Results

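Ribosomal protein genes encode the proteins that, with ribosomal RNA, build the small and the large subunit of the cytosolic ribosome. They were followed here in the spinal cord of mice after injury. Members were the probe sets whose single gene symbol in the array annotation was that of a protein of the large subunit (Rpl and Rplp symbols) or of the small subunit (Rps symbols and Rpsa), without kinases and pseudogenes. This gave 45 genes on 96 probe sets, out of 12393 genes that had a probe set of their own. Of these, 24 belonged to the large and 21 to the small subunit. Where a gene had several probe sets, the one with the highest mean over the arrays stood for it. The filter on low values kept 43 members, all 21 of the small and 22 of the large subunit, among 10370 genes tested. Rpl39l and Rpl3l, which encode tissue-restricted paralogs of large-subunit proteins, did not pass it, with values between 5.87 and 6.48 on all arrays.

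The animals were wild-type C57BL/6 female mice, 10 weeks old. They had either an incision through 80% of the cord, made after laminectomy, or the laminectomy alone. The sample titles call the second kind naive, while the design text calls it sham, and sham is used here. After 9 hours a 2.5 cm stretch of cord around the site was homogenised. A small part of the homogenate gave total RNA (5 µg labelled), and polysome-bound RNA (3 µg labelled) was collected from the remainder on a sucrose gradient. There were 3 biological replicates in each of the 4 groups, so 12 arrays in all, and p values measure the spread between these samples. Values are log2 expression values per probe set, and a difference of 1 is a 2-fold change in signal.

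Ribosomal proteins are needed in near equal numbers, and their mRNAs are among the most abundant of any cell. Most of these mRNAs begin with a cytosine followed by a run of pyrimidines, the 5′ terminal oligopyrimidine (TOP) element. Through it the mTORC1 kinase pathway and the RNA-binding protein LARP1 hold such mRNAs off polysomes or load them onto polysomes together, and in neurons some of them are also translated in axons.

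The start regions of 8 members that bear the results below are shown here, because the TOP element lies at the first bases of the mRNA. Each stretch runs 5′ to 3′ over 30 bases, from 10 bases before the annotated transcription start of RefSeq (mouse build GRCm38.p6). Capitals mark a C within 3 bases of the annotated start, followed by at least 4 further pyrimidines (C or T), on the strand of the gene only. Rps18 and Rpsa encode small-subunit proteins that rose on polysomes. Rplp0 and Rps26 rose in total RNA and fell on polysomes. Rps27l had the largest rise in total RNA and missed the threshold on polysomes.
Rps18 (chr17:33955646-33955675, minus strand): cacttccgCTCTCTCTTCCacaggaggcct
Rps27l (chr9:66946076-66946105, plus strand): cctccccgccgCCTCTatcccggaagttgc
Rps27 (chr3:90213629-90213658, minus strand): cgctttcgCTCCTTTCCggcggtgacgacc
Rps6 (chr4:86857348-86857377, minus strand): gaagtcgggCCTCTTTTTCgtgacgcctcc
Rpsa (chr9:120127756-120127785, plus strand): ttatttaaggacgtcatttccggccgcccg
Rps25 (chr9:44407704-44407733, plus strand): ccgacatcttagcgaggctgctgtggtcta
Rps26 (chr10:128626487-128626516, minus strand): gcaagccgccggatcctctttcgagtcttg
Rplp0 (chr5:115559457-115559486, plus strand): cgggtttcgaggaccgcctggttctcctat
The element was found in 15 of the 39 members in the promoter table (38.5%), against 3651 of 27025 genes (13.5%). Of the tested members in the table, 8 of 20 of the large and 7 of 17 of the small subunit had it. An annotated start can lie some bases from the start used in the cord. A missing mark therefore says only that no such run begins within 3 bases of the annotated start. In the Rps26 stretch, for example, a C followed by a run of pyrimidines begins farther downstream and is not marked. Rps27l has a second annotated start without the run.

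Over all genes, arrays of a group correlated at 0.993 to 0.998, and 60.2% of genes were called different after injury in total RNA. Several array measures also moved with injury. The 3′ minus 5′ difference of the Gapdh control probe sets was 0.23 in sham and 1.40 in injured cord for total RNA, and 0.87 and 2.83 for polysome arrays. The median of the spiked hybridisation controls went from 10.36 to 9.88 and from 10.15 to 9.83. Each of these changes had an exact two-sided permutation p of 0.1, the smallest that 3 against 3 allows. Their part in the results was not tested. All measured markers of neurons (8), oligodendrocytes (6) and astrocytes (6) lay above every control probe set for absent organisms on all 12 arrays. Over 8 measured markers of infiltrating myeloid cells the mean level in total RNA was 8.20 without and 8.47 with injury, and 7.32 and 7.33 on polysomes, with Ccr2 at background on every array. In total RNA S100a8 (9.65 to 11.02), S100a9 (9.37 to 10.95), Itgam (7.40 to 7.93) and Lyz2 (9.15 to 9.23) read higher with injury, and Camp (7.96 to 7.39), Ngp (8.72 to 8.08) and Mpo (6.91 to 6.63) lower. The mean of the astrocyte list moved by 0.29 in total RNA and by -0.22 on polysomes, that of the oligodendrocyte list by 0.08 and -0.16, and that of the neuron list by -0.07 and -0.05. Over 7 microglial markers it went from 8.85 to 8.51 and from 8.43 to 8.05. Markers within a list went both ways. Of the neuron list in total RNA, Rbfox3 (8.47 to 7.64) and Syt1 (8.28 to 7.35) read lower and the others higher. Of the astrocyte list on polysomes, Gfap (11.22 to 11.63) and Aldoc (13.46 to 13.60) read higher and the others lower, Aqp4 most (11.20 to 9.99). Of the microglial list in total RNA, C1qb (9.30 to 9.77) read higher and the others lower. In such tissue RNA, fewer cells of a type and less RNA per cell cannot be told apart, and the part of these cells in the results was not tested.

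The members were among the brightest genes of the cord: 32 of the 43 lay among the brightest 10% of tested genes, and 42 lay above every absent-organism control on all arrays. The exception was Rpl12, a protein of the stalk base, which did so on the 6 total RNA arrays and on none of the polysome arrays. The median member level per array (mean ± SD, n = 3) was 12.05 ± 0.04 in sham and 12.43 ± 0.06 in injured cord for total RNA. On polysomes it was 11.65 ± 0.07 and 11.67 ± 0.11. Together the members held 2.51% ± 0.02, 2.67% ± 0.04, 1.82% ± 0.09 and 1.92% ± 0.13 of the summed linear signal in these 4 groups, in that order. Another 8 members were measured on dim probe sets with a mean level of 9 or less (Rpl12, Rpl14, Rpl27a, Rpl37, Rpl39, Rps6, Rps25 and Rps27). Differences can be compressed on such probe sets.

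The first comparison asked how ribosomal protein transcripts changed in amount after injury. In total RNA 36 of the 43 members rose and none fell, against 42.1% of all genes higher and 18.1% lower. The rises were small, from 0.19 to 0.58, with a median standard error (SE) of 0.08. The members' median difference was 0.33, against 0.12 over all genes and 0.27 over the brightest 10% of genes, in which 753 of 1037 rose and 28 fell. The rises comprised 18 of 22 large-subunit genes (median 0.33) and 18 of 21 small-subunit genes (median 0.29). Injured and sham arrays did not overlap for 40 members, all of them higher, where 51% of all genes showed this. Adjusted p values are from limma throughout, with Benjamini-Hochberg adjustment over 10370 genes.

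The largest rise was that of Rps27l, a paralog of Rps27 known as a target of p53. Its values were 9.29, 9.25 and 9.28 in sham and 10.01, 9.85 and 9.71 in injured total RNA. Every injured array thus lay above every sham array, and the difference was 0.58 (SE 0.13, limma adjusted p = 0.002). Rplp0, the scaffold of the stalk that recruits elongation factors, read 11.89, 11.91 and 11.98 in sham and 12.55, 12.39 and 12.40 in injured cord. It rose by 0.52 (SE 0.08, limma adjusted p = 0.00011). Rps18, a protein of the head of the small subunit, went from 11.63, 11.58 and 11.72 to 12.21, 12.16 and 12.07, a rise of 0.51 (SE 0.07, limma adjusted p = 5.3e-05). None of these 3 genes had overlapping groups. In a fit over all probe sets, a dim one of Rps18 (level 6.71) was called lower in total RNA (-0.15, limma adjusted p = 0.017).

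By role, all 3 measured stalk genes rose (Rplp0, Rplp2 and Rpl12, 0.34 to 0.52), as did Rpl11 of the 5S particle, which also binds Mdm2 (0.34). So did 4 of 5 genes of the nascent chain tunnel (0.01 to 0.44 over the 5), Rpl8 near the peptidyl transferase centre (0.30), all 4 of mRNA entry and decoding (Rps2, Rps3, Rps9 and Rps15, 0.29 to 0.40) and all 4 of the mRNA exit side and platform (Rpsa, Rps14, Rps26 and Rps28, 0.25 to 0.38). Rps6, the substrate of S6 kinase, rose by 0.19 (limma adjusted p = 0.027). In the fit over all probe sets, another bright probe set of Rps9 (level 10.74) read -0.03 (limma adjusted p = 0.91). A dim one of Rps9 (level 6.28) was called higher (0.30, limma adjusted p = 0.00015). On the probe sets used, the 3 lowest differences belonged to Rpl27a, Rpl39 and Rps4l. Rpl27a read 8.50, 8.69 and 8.77 in sham and 8.53, 8.62 and 8.62 in injured total RNA. Rpl39, at the tunnel exit, read 7.91, 7.91 and 7.79 and then 7.94, 7.85 and 7.87. Rps4l, a paralog of Rps4x, read 9.10, 9.36 and 9.40 and then 9.75, 9.49 and 9.00. In all 3 the groups overlapped, and the differences were -0.07, 0.01 and 0.12 with limma adjusted p values of 0.61, 0.9 and 0.57.

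The count of rises depended on the scaling of the arrays. After quantile normalization over the 12 arrays 9 members were called higher and none lower, with a median of 0.08 against 0.01 for all genes, and the share of all calls that were higher went from 70% to 55.9%. Rpl10a, Rpl12, Rpl4, Rplp0, Rps18, Rps20, Rps25 and Rps27l were called higher as deposited, after both quantile normalizations and after centring each array on its median. Leaving out each array in turn kept 31 of the 36 calls. Those of Rps26, Rps28, Rps6 and Rps7 were lost without injured total replicate 1. Those of Rps28 and Rps6 were also lost without sham replicate 2, and that of Rps14 without sham replicate 1.

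The second comparison asked what happened to the same transcripts on polysomes. There the common rise was not seen: 6 members rose and 7 fell, against 13.8% of all genes higher and 25.3% lower (39.1% in all), and the median was 0.01 against -0.04 for all genes. The members that rose were Rpsa (0.49), Rps25 (0.46), Rps18 (0.39), Rps28 (0.33), Rps10 (0.22) and Rpl38 (0.20). Those that fell were Rps26 (-0.49), Rplp0 (-0.38), Rpl11 (-0.32), Rpl6 (-0.32), Rps7 (-0.22), Rpl7 (-0.21) and Rps6 (-0.18). In the small subunit 5 of 21 rose and 3 fell, and in the large subunit 1 of 22 rose and 4 fell. Injured and sham polysome arrays did not overlap for 6 higher and 8 lower members, where 17.8% and 28.6% of all genes did so. All 13 were among the 36 that rose in total RNA, and the other 23 of the 36 were not called on polysomes.

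**Figure D1:**
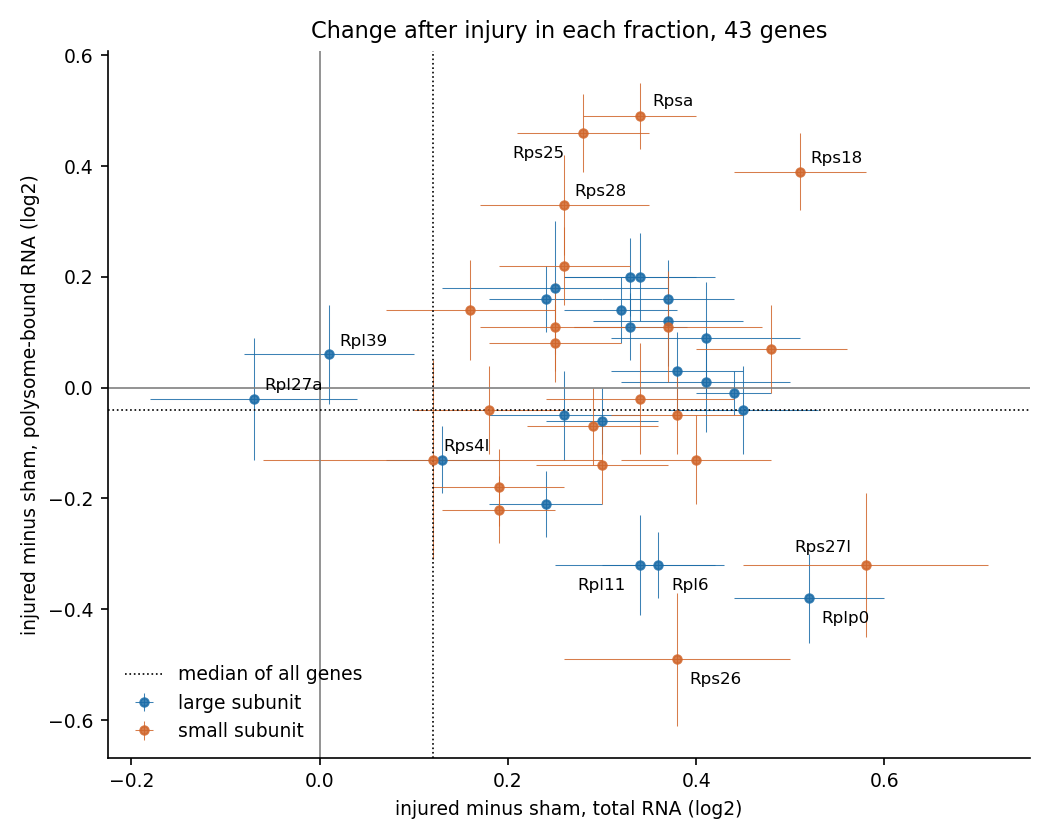
Change after injury of the 43 tested ribosomal protein genes in total RNA (horizontal axis) and in polysome-bound RNA (vertical axis), as log2 differences with bars of 1 limma SE from 3 arrays a group; dotted lines are the medians of all tested genes. The members lie between -0.07 and 0.58 in total RNA and spread from -0.49 to 0.49 on polysomes.

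Rpsa, the laminin receptor protein at the mRNA exit side of the small subunit, had the largest rise on polysomes. It read 11.80, 11.82 and 11.65 on the sham and 12.30, 12.20 and 12.23 on the injured polysome arrays. The groups were well apart, and the difference was 0.49 (SE 0.06, limma adjusted p = 2e-05). Rps25, a protein of the head that is needed by some viral internal ribosome entry sites, read 7.44, 7.35 and 7.29 and then 7.72, 7.74 and 8.0. It rose by 0.46 (SE 0.07, limma adjusted p = 0.00019) on a dim probe set. Rps18 read 11.40, 11.39 and 11.22 and then 11.61, 11.81 and 11.76, and rose by 0.39 (SE 0.07, limma adjusted p = 6e-04). Rps28, beside Rpsa at the exit side, read 12.38, 12.45 and 12.15 and then 12.49, 12.61 and 12.87, again with no overlap, and rose by 0.33 (SE 0.09, limma adjusted p = 0.0092).

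Rps26 also lies at the mRNA exit channel, and it changed in the other direction. Its values were 11.12, 11.15 and 11.00 on sham and 10.23, 10.69 and 10.86 on injured polysome arrays. The 3 injured values lay below all sham values but ranged from 10.23 to 10.86, and the difference was -0.49 (SE 0.12, limma adjusted p = 0.0042). Injured replicate 1 set much of its size: without it the fall was -0.31 and still called. Rplp0 read 11.15, 11.16 and 11.10 and then 10.55, 10.89 and 10.84, a difference of -0.38 (SE 0.08, limma adjusted p = 0.0019). Rps27l read 9.29, 9.40 and 9.11 and then 8.70, 8.83 and 9.33, so its groups overlapped through injured replicate 3. Its difference of -0.32 (SE 0.13) missed the threshold (limma adjusted p = 0.07), and without that array it was -0.51 and passed it.

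**Figure D2:**
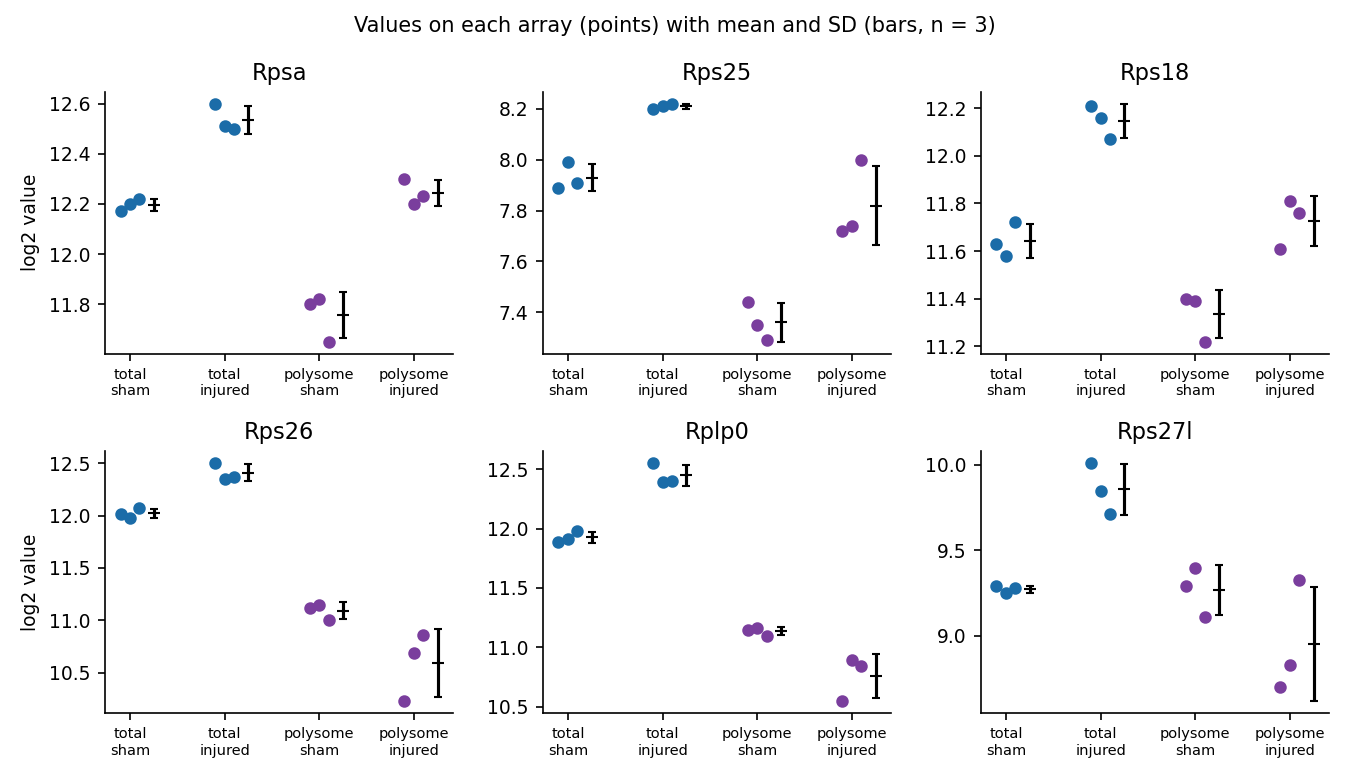
Log2 values of 6 ribosomal protein genes on each of the 12 arrays (points) with the mean and SD of each group (bars, n = 3); each panel has its own vertical axis. As deposited, Rpsa, Rps25 and Rps18 were higher after injury in both fractions, while Rps26 and Rplp0 were higher in total RNA and lower on polysomes (Rpsa and Rps26 were not called in total RNA after quantile normalization), and the Rps27l groups overlapped on polysomes.

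The 4 genes of the mRNA exit side and platform thus spanned the whole range of the members on polysomes, from -0.49 (Rps26) to 0.49 (Rpsa), with Rps28 at 0.33 and Rps14 at 0.11 (limma adjusted p = 0.25). The 4 decoding genes lay close together, from -0.13 to -0.02, and none was called. Among stalk genes Rplp2, which binds to Rplp0, read 12.59, 12.74 and 12.53 and then 12.69, 12.74 and 13.03, a difference of 0.20 with a limma adjusted p of 0.058, while Rpl12 was at background. None of the 5 tunnel genes was called (-0.05 to 0.12).

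Most members with several probe sets gave close values for this change. Of the members, 18 had at least 2 probe sets with a level above 9, 51 in all. The SD of the polysome change was 0.07 between probe sets of a gene and 0.18 between genes. In 14 of the 18 genes all these probe sets had the same sign. The widest range was 0.26, at Rps10, where a bright probe set read -0.04 (limma adjusted p = 0.77) and the brightest 0.22. For Rps27l the 3 probe sets gave -0.32, -0.40 and -0.34, and for Rps18 the 3 bright ones gave 0.39, 0.28 and 0.17. In the fit over all probe sets, the Rps27l probe set at -0.40 was called lower (limma adjusted p = 0.027), unlike the brightest one. Under all 4 scalings (as deposited, both quantile normalizations and centring) 5 members were higher (Rps10, Rps18, Rps25, Rps28 and Rpsa) and 4 lower (Rpl11, Rpl6, Rplp0 and Rps26).

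The counts themselves were less firm. They were 8 higher and 6 lower after quantile normalization, and 11 higher and 4 lower after centring, where the share of all calls that were higher went from 35.2% to 57.2%. Without injured polysome replicate 1 there were 13 members higher, without sham polysome replicate 3 there were 3 higher, and without sham polysome replicate 2 there were 4 lower. Of the 13 calls, 7 held whichever array was left out. Those of Rpl11 and Rpl7 were lost without sham polysome replicate 2, those of Rps28, Rps10 and Rpl38 without sham replicate 3, those of Rps10 and Rpl38 also without injured replicate 3 and that of Rpl38 also without sham replicate 1. Rps6 kept its call in 3 of the 12 such fits. Without injured polysome replicate 1 the value of Rpl11 was -0.17 and still called. Injured polysome replicates 1, 2 and 3 had array weights of 0.21, 0.47 and 0.89; all other arrays had 0.92 to 2.1.

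The interaction asks whether the change on polysomes differed from that in total RNA, and a negative value means that the polysome change was lower. Of the members 21 of 43 had a lower change on polysomes and none a higher one, against 39.3% of all genes lower and 11% higher (50.2% in all). Among the brightest 10% of genes 59.2% were lower and 2.7% higher. The members' median was -0.26, against -0.16 for all genes and -0.31 for the brightest 10%. In the large subunit 11 of 22 genes were lower (median -0.29) and in the small subunit 10 of 21 (median -0.26). Rps27l and Rplp0 had the most negative values, -0.90 each (SE 0.19 and 0.11, limma adjusted p = 0.0016 and 6.7e-05), followed by Rps26 at -0.88 (SE 0.16, limma adjusted p = 0.00087).

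All 4 decoding genes were lower in the interaction (Rps9 -0.52, Rps2 -0.42, Rps3 -0.36 and Rps15 -0.36), as were Rpl11 (-0.66), Rpl8 (-0.36), Rps6 (-0.37), 3 of 5 tunnel genes (-0.46 to 0.05 over the 5) and Rplp0 and Rpl12 of the stalk, the latter with polysome values at background. For Rps9 another bright probe set (level 10.74) read -0.02 in the fit over all probe sets (limma adjusted p = 0.95). A dim one (level 6.28) was called lower there (-0.31, limma adjusted p = 0.0022). The highest interaction values of the members were those of Rps25 (0.18), Rpsa (0.14) and Rps28 (0.06). Their limma adjusted p values were 0.15, 0.14 and 0.69. Under all 4 scalings 8 members were lower: Rpl11, Rpl4, Rpl6, Rplp0, Rps26, Rps27l, Rps7 and Rps9. After quantile normalization over 12 arrays 11 members were lower and 3 higher, and the higher ones were Rps10 (0.24), Rps28 (0.27) and Rpsa (0.43). The share of all calls that were higher went from 21.8% to 47%. Without injured polysome replicate 3 the count of lower members was 32. The calls of Rpl14, Rpl19, Rpl22 and Rps15 were lost in 2, 4, 2 and 10 of the 12 fits that left out an array, and the other 17 held in all of them.

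The paralog group held 6 tested genes, canonical members as well as paralogs: Rps27l, Rps27, Rps4l, Rps4x, Rpl22 and Rpl39. Of these, 3 rose in total RNA (Rps27l, Rps4x and Rpl22). On the probe sets used, none was called on polysomes (-0.32 to 0.06). Rps27, the canonical partner of Rps27l, read 7.64, 7.65 and 7.73 in sham and 7.89, 7.77 and 7.89 in injured total RNA, and 6.97, 7.15 and 6.91 in sham and 6.86, 6.89 and 7.17 in injured polysome-bound RNA. Its injury differences were 0.18 and -0.04, neither past the threshold, on a dim probe set. Rps4x rose by 0.30 in total RNA, where its other, dim probe set (level 6.84) was called lower in the fit over all probe sets (-0.27, limma adjusted p = 0.0024), and was not called on polysomes (-0.14), and Rps4l was called in neither (0.12 and -0.13). Rpl22, which has a paralog in Rpl22l1, rose by 0.41 in total RNA and lay at 0.01 on polysomes. The other bright probe set of Rpl22 (level 9.77) was not called in the fit over all probe sets. It read 0.16 in total RNA (limma adjusted p = 0.26) and -0.16 in the interaction (limma adjusted p = 0.44).

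The remaining comparisons set polysome-bound against total RNA within a condition. The 2 fractions were labelled from different amounts of RNA, and their arrays differed in level. In sham cord the mean array median was 7.76 for total RNA and 7.25 on polysomes, and the absent-organism controls read 6.08 and 5.70. In injured cord these values were 7.78 and 7.18, and 6.06 and 5.71. No offset between arrays was removed from the deposited values, so each difference includes it. Counts after centring each array on its median are given further on. In sham cord 30 of the 43 members were lower on polysomes and 2 higher, against 59.1% and 21% of all genes (80.1% in all), with a median of -0.44 against -0.30 for all genes and 0.25 for the brightest 10%. In injured cord 38 were lower and 2 higher, against 72.7% and 13.6% (86.3% in all), with a median of -0.77 against -0.41, and -0.05 for the brightest 10%. The fractions did not overlap for 31 lower members in sham and 38 in injured cord, against 62.2% and 71.8% of all genes. All 30 members that were lower in sham were also lower in injured cord.

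Rpl37a, a zinc-binding protein of the large subunit, was lowest on polysomes in sham cord. It read 13.08, 13.18 and 13.15 in total and 11.68, 11.87 and 11.63 in polysome-bound RNA, a difference of -1.41 (SE 0.12, limma adjusted p = 1e-07). Rpl37 read 9.38, 9.23 and 9.39 in total and 8.11, 8.10 and 7.92 in polysome-bound RNA, a difference of -1.29. Rpl12 read 7.32, 7.23 and 7.32 in total RNA and 6.08, 5.97 and 6.08 on polysomes, where it was at background, so its size of -1.24 is only a bound. No values of these genes overlapped between the fractions.

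In injured cord the lowest were Rps26 at -1.81 (SE 0.12), Rplp0 at -1.69 (SE 0.08) and Rpl12 at -1.60, again a bound. The injured total RNA arrays read 12.50, 12.35 and 12.37 for Rps26 and 12.55, 12.39 and 12.40 for Rplp0, far above the injured polysome values of both genes given earlier. Rps4l was highest in both conditions, with polysome values of 10.25, 10.53 and 10.33 in sham and 10.18, 10.60 and 9.94 in injured cord. It was 1.09 higher on polysomes in sham and 0.83 in injured cord (SE 0.18 each, limma adjusted p = 4.9e-05 and 0.00049). Rpl27a followed at 0.53 and 0.58, with polysome values of 9.24, 9.22 and 9.09 in sham and 8.89, 9.21 and 9.41 in injured cord. Rpl7a was next, at 0.13 and -0.06, not past the threshold in either (limma adjusted p = 0.052 and 0.34). Its values were 12.48, 12.44 and 12.49 in total and 12.62, 12.66 and 12.50 in polysome-bound RNA of sham cord, where no arrays overlapped.

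**Figure D3:**
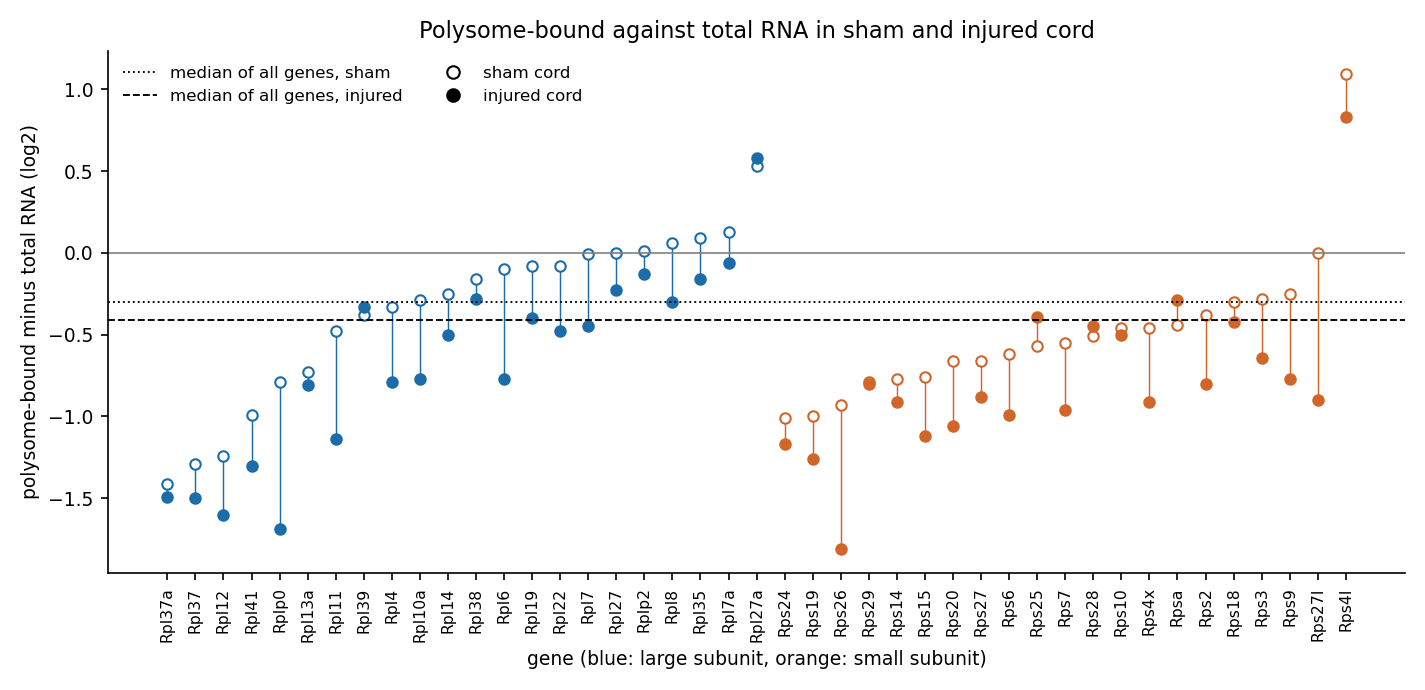
Polysome-bound minus total RNA (log2 difference of group means, n = 3 arrays each) for each tested ribosomal protein gene, in sham (open) and injured (filled) cord, ordered by the sham value within each subunit; horizontal lines are the medians of all tested genes. Most filled points lie below the open ones, with the widest gaps at Rplp0, Rps26 and Rps27l.

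The 2 conditions share no array. Their fraction differences correlated at r = 0.88 and rho = 0.85 over the 43 members, and at r = 0.81 over all genes. These are descriptions across genes, which are not independent, and each gene is read by the same probe set in both. By contrast, the injury changes in total RNA and on polysomes, which also share no array, correlated at r = -0.07 and rho = -0.03 over the members and at r = 0.37 over all genes.

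The 2 subunits were compared by the change of each gene, since levels of different probe sets cannot be compared. Each gene was set relative to its own mean on the sham total RNA arrays, and the median over a subunit was taken on each array. In injured total RNA it was 0.33 ± 0.04 for the large and 0.31 ± 0.06 for the small subunit (mean ± SD, n = 3), against 0.12 ± 0.03 for all genes. On sham polysome arrays it was -0.19 ± 0.08 and -0.54 ± 0.09, against -0.30 for all genes. On injured polysome arrays it was -0.28 ± 0.12 and -0.58 ± 0.17, against -0.37 ± 0.05. The large-subunit median exceeded the small-subunit median by 0.33 to 0.36 on the sham and by 0.26 to 0.35 on the injured polysome arrays. Over the members with a level above 9 it did so by 0.33 to 0.39 and by 0.29 to 0.34. Gene by gene, 11 of 22 large-subunit genes (50%, median -0.20) and 19 of 21 small-subunit genes (90.5%, median -0.55) were lower on polysomes in sham cord, against 59.1% of all genes. In injured cord it was 18 of 22 (81.8%, median -0.49) and 20 of 21 (95.2%, median -0.88), against 72.7%. The difference of the 2 medians was 0.35 in sham and 0.39 in injured cord. Tests of single genes do not test this difference between lists, and none was made.

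**Figure D4:**
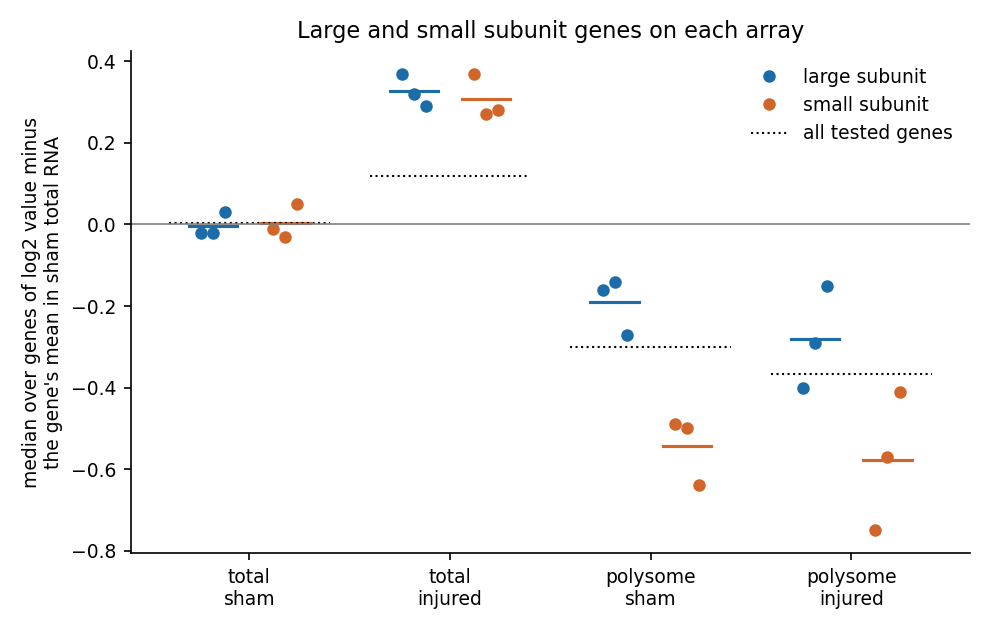
Median over the large-subunit (22) and small-subunit (21) genes of the log2 value minus the gene's own mean in sham total RNA, for each array (points), with group means as solid lines and the mean for all tested genes dotted. In sham total RNA, the reference, both subunits lie together by construction, and they also lie together in injured total RNA. On each polysome array the large subunit lies above the small one, by 0.26 to 0.36.

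The fraction values depended on the probe set. Over the same 18 genes the SD between probe sets of a gene was 0.36 in sham and 0.41 in injured cord, against 0.45 and 0.42 between genes, and the 4 bright probe sets of Rpl13a ranged over 1.67 and 1.84. Rpl13a and Rpl35 had probe sets called in opposite directions in both conditions, and Rpl27 in injured cord. Without probe sets that carry the suffix for cross-hybridising or shared sequence the difference of subunit medians was 0.22 in sham and 0.11 in injured cord. After centring, 19 members were higher and 12 lower on polysomes in sham cord, and 14 and 23 in injured cord, and the share of all calls that were higher went from 26.2% to 74.2% and from 15.8% to 69.1%. With quantile normalization over 12 arrays, 31 were lower and 3 higher in sham and 35 and 3 in injured cord, and those shares were 56.8% and 55.8%. The members' median stayed below that of all genes under each of these scalings (0.07 against 0.21 in sham cord after centring). The median of the large subunit in sham cord was -0.20, above the -0.30 of all genes, but -0.23 and below their 0.05 after quantile normalization.

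**Figure D5:**
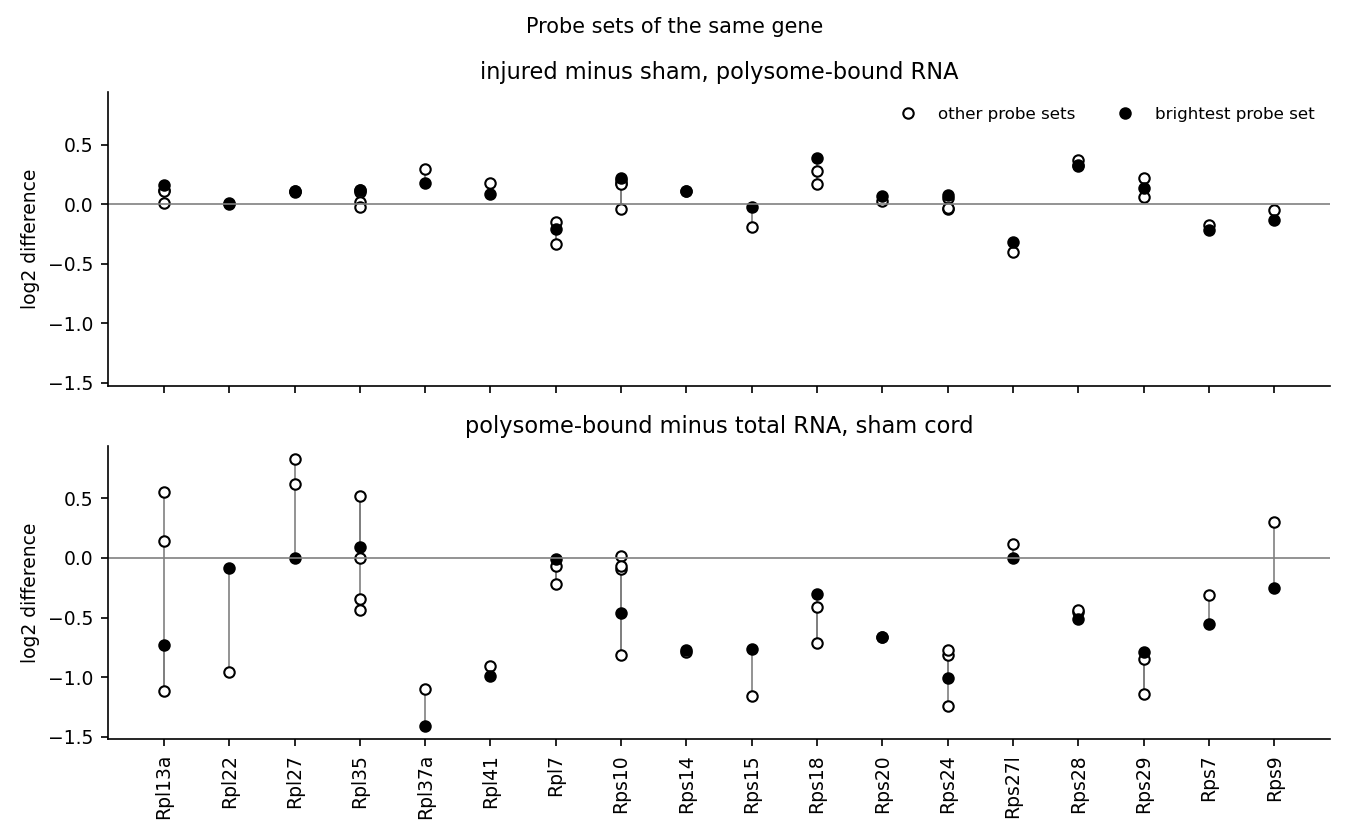
Log2 differences of each bright probe set (points, filled for the one used) of the 18 members that have at least 2 such probe sets, for the change after injury on polysomes (top) and for polysome-bound minus total RNA in sham cord (bottom). Probe sets of a gene lie close together at the top (SD 0.07) and farther apart at the bottom (SD 0.36).

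Members with and without the TOP element at the annotated start were set beside each other (15 and 22 tested genes). The median rise in total RNA was 0.32 and 0.34, and the median change on polysomes 0.08 and -0.01. On polysomes against total RNA the medians were -0.25 and -0.47 in sham and -0.50 and -0.80 in injured cord. Over all tested genes with the element (1268) and without it (7050) the medians were -0.28 and -0.29 in sham and -0.41 in both sets in injured cord.

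Other genes of translation were read from lists. These lists, too, are described by counts and medians. Their counts are to be read against all genes, of which 42.1% rose and 18.1% fell in total RNA, 13.8% rose and 25.3% fell on polysomes, and 11% were higher and 39.3% lower in the interaction. Of 18 other mRNAs known or held to carry a TOP element (elongation factors, initiation factor 3 subunits and others), all 18 rose in total RNA (median 0.34). On polysomes 4 rose and 4 fell (22.2% each, median 0.03), and 13 were lower in the interaction (72.2%). Eef1d, an exchange factor of elongation factor 1, rose by 0.72 in total RNA and 0.46 on polysomes. Npm1, a nucleolar chaperone, rose by 0.52 and Btf3, part of the nascent chain complex, by 0.63 in total RNA. Pabpc1, which binds poly(A) tails, rose by 0.59 on polysomes, and Eif3f fell by 0.37 there. Btf3 (-1.13), Eif3h (-0.65) and Eif3f (-0.59) had the lowest adjusted p values in the interaction. In sham cord 7 of the 18 were higher and 7 lower on polysomes (38.9% each, median 0.05), against 21% and 59.1% of all genes. After quantile normalization over 12 arrays 5 rose and none fell in total RNA, and 4 were lower and 1 higher in the interaction. After centring, 16 were higher and none lower on polysomes in sham cord.

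Of 4 further ribosome proteins outside the symbol rule all 4 rose in total RNA, none was called on polysomes and 3 were lower in the interaction. Fau, whose product is cleaved to a small-subunit protein, rose by 0.51, Rpl22l1 by 0.41 and Rpl7l1 by 0.38. Their polysome changes were 0.16, -0.20 and -0.13, and their interactions -0.35, -0.62 and -0.51. After quantile normalization 2 of the 4 rose in total RNA.

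Ribosome biogenesis genes rose in total RNA in 46 of 50 cases (92%, median 0.39) with none lower. On polysomes 19 rose (38%) and 2 fell (4%), with a median of 0.09. In the interaction 26 were lower (52%, against 39.3% of all genes) and 3 higher (6%, against 11%). Gnl3, a nucleolar GTPase, rose by 0.72, Ncl, which encodes nucleolin, by 0.63 and Wdr75 by 0.59 in total RNA. The helicase gene Ddx10 (0.66), Utp20 (0.55) and Ubtf, a factor of RNA polymerase I (0.46), rose on polysomes. After quantile normalization 33 rose in total RNA and 28 on polysomes with none lower in either, but 6 were higher and 4 lower in the interaction. As deposited, Rrp1 (-0.45), Rrn3 (-0.42) and Ftsj3 (-0.57) had the lowest adjusted p values in the interaction.

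Among 22 genes of the mTORC1 pathway and TOP regulation 13 rose (59.1%) and 3 fell (13.6%) in total RNA, and 7 rose (31.8%) and 5 fell (22.7%) on polysomes. In the interaction 9 were lower (40.9%) and 2 higher (9.09%), close to the 39.3% and 11% of all genes. Myc, a transcription factor that drives ribosome production, rose by 0.84 in total RNA, where Sesn2 (-0.44) and Rps6kb2 (-0.39) fell. On polysomes Sesn1 rose by 0.47, while Tsc2 (-0.62), an inhibitor of the pathway, and Rragc (-0.53), one of its activating GTPases, fell. Eif4e, the cap-binding protein, had an interaction of -1.30, Rragc of -0.94 and Sesn2 of 0.65. After quantile normalization 4 rose and 5 fell in total RNA, and 7 were higher and 4 lower in the interaction, so the balance of both counts turned.

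Of 74 mitochondrial ribosomal protein genes, which encode a separate ribosome, 36 rose and none fell in total RNA (median 0.22), and the share that rose, 48.6%, was near the 42.1% of all genes. On polysomes 6 rose (8.11%) and 33 fell (44.6%), with a median of -0.21, and 50 were lower in the interaction (67.6%) with none higher. Mrps6 (0.86), Mrpl41 (0.74) and Mrps9 (0.38) rose in total RNA. On polysomes Mrpl14 (-0.58) and Mrpl40 (-0.51) fell and Mrpl41 (0.47) rose, and Mrpl18 (-1.06), Mrpl42 (-1.0) and Mrps22 (-0.66) were lower in the interaction. In sham cord 53 of the 74 were higher on polysomes (71.6%) and 4 lower (5.41%), with a median of 0.37. Of all genes 21% were higher and 59.1% lower, and of 43 cytosolic members 2 were higher and 30 lower. In injured cord 23 of the 74 were higher and 23 lower (31.1% each, median -0.09), against 13.6% and 72.7% of all genes. The injured counts were 53 and 7 after quantile normalization over 12 arrays (all genes 40.9% and 32.4%). After centring they were 60 and 5 (all genes 53% and 23.7%). After quantile normalization 13 rose and 6 fell in total RNA, 10 rose and 26 fell on polysomes, 3 were higher and 17 lower in the interaction, and 60 were higher and 4 lower on polysomes in sham cord.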

How the data were processed

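Total and polysome-bound RNA from spinal cord was measured on 12 Affymetrix arrays, 1 value per probe set and array. The deposited values are log2 expression values made by the authors; no label gives the scale, and log2 was inferred from their range of 5.26 to 14.65. Their background correction and normalization are not given in the sources used here. Groups were taken from the sample titles. Of 22690 probe sets, 20380 named 1 gene in the array annotation, 691 named several and were not used, and 1619 named none. Several canonical ribosomal protein genes are read only by probe sets that name several genes, and are not analysed here. Members and lists were chosen with earlier results of these data known.

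A probe set was kept if it was above the 25th percentile of values on 3 or more arrays. A gene was tested if any of its probe sets was kept, and the brightest kept one stood for it. Differences came from limma 3.58.1 (statmod 1.5.0, R 4.3.3), with 4 group means, an intensity trend, 8 residual and 14.1 moderated degrees of freedom, two-sided tests and Benjamini-Hochberg adjustment over 10370 genes, threshold 0.05. The procedure was tested on simulated data. Arrays carry no read depth: their number limits the precision. The fit used no replicate block, since no label ties equal numbers to 1 animal. Deviations of equally numbered total and polysome arrays correlated at 0.23, 0.18 and 0.17 in sham and at -0.10, 0.20 and 0.10 in injured cord. With other numbers in the other fraction the highest were -0.08, -0.04 and -0.06 in sham, and 0.08, -0.04 and 0.12 in injured cord.

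Named members were the 3 highest and 3 lowest of each of 5 comparisons, the role groups, and genes with probe sets called in opposite directions; from each list up to 3 genes with the lowest adjusted p per comparison were named. Members named for a count or a call beyond this rule were chosen after their values were seen. Alternatives were the filter, averaging the probe sets of a gene, exclusion of shared-sequence probe sets, quantile normalization over all arrays or within a fraction, median centring, array weights, no trend, replicate blocks and leaving out each array. Restricting members to a mean level above 9, and setting each gene relative to its sham total mean for the subunits, were chosen after seeing the data. Marker lists for endothelium (5 measured genes), red blood cells (2), skeletal muscle (5) and Schwann cells (none measured) were also read: their mean levels changed after injury by 0.18, 0.15 and -0.27 in total RNA and by -0.08, 0.13 and -0.19 on polysomes. Start sequences are from the RefSeq promoter table (GRCm38.p6). Protein sequences were not used here.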

Additional observations from a re-analysis of the deposited data

Results flagged for a closer look

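The change after injury differed between polysome-bound and total RNA for 21 members by limma's test of the interaction, and in each case the polysome change was the lower one. The values are log2 differences of the 2 changes. The 3 most negative were those of Rplp0 (-0.90), Rps27l (-0.90) and Rps26 (-0.88). In the large subunit the others were Rpl6 (-0.68), Rpl11 (-0.66), Rpl10a (-0.48), Rpl4 (-0.46), Rpl7 (-0.45), Rpl22 (-0.40), Rpl12 (-0.36), Rpl8 (-0.36), Rpl19 (-0.32) and Rpl14 (-0.25). In the small subunit they were Rps9 (-0.52), Rps4x (-0.45), Rps2 (-0.42), Rps20 (-0.41), Rps7 (-0.41), Rps6 (-0.37), Rps15 (-0.36) and Rps3 (-0.36). Among all tested genes 39.3% were lower and 11% higher in this test, so the count of members is to be read against that share. Rpl12 lay at background on the polysome arrays. Other bright probe sets of Rps9 (-0.02) and Rpl22 (-0.16) were not called in the fit over all probe sets. After quantile normalization over 12 arrays 11 members were lower and 3 higher.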

How the results depend on the processing

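Limits: there were 3 arrays a group, array measures of RNA ends and spiked controls moved with injury, 8 members were read on dim probe sets, and fraction differences varied between probe sets of 1 gene. The cause of each shift below was not tested. With no filter, 1 member was lower in total RNA, and the members' median relative to all genes was 0.27 for injury in total RNA and -0.05 for polysomes against total RNA in sham cord; with the filter at the array median these were 0.13 and -0.32. With the probe sets of a gene averaged, the large minus small subunit median was 0.06 for injury in total RNA, 0.22 for the fractions in sham and 0.32 in injured cord; without shared-sequence probe sets the last pair was 0.22 and 0.11, and array weights gave 0.33 in injured cord. Quantile normalization over 12 arrays gave 9 members higher in total RNA (relative median 0.07, subunit difference 0.02), 3 higher and 11 lower in the interaction, and relative medians of -0.50 and -0.58 for the fractions in sham and injured cord. Within each fraction it gave 10 higher in total RNA (relative median 0.08, subunit difference 0.01; 3912 genes called in all), 4 higher and 11 lower in the interaction, and -0.22 and -0.26 for the fractions. Centring gave 11 higher and 4 lower on polysomes after injury, 2 higher in the interaction, 19 higher and 12 lower between fractions in sham and 14 and 23 in injured cord. The median of all genes moved by over 0.1 between scalings: it was 0.12 in total RNA and 0.01 after quantile normalization, -0.30 and -0.41 for the fractions as deposited and 0.21 and 0.19 after centring. With members above a level of 9 only, chosen after seeing the data, 1 was higher on polysomes in each condition.

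Of members called under either setting, quantile normalization over 12 arrays turned the sign of 2 in total RNA after injury (Rpl7 and Rps7), 1 in the interaction (Rps10), and 2 and 3 between fractions in sham and injured cord. Centring turned 19 and 16 between fractions. Examples after quantile normalization were Rpl39 (0.08 in sham and 0.25 in injured cord) and Rps25 (0.15 in injured cord). After centring, examples were Rpl11 (0.03), Rpl39 (0.13), Rpl6 (0.41), Rps18 (0.21), Rps4x (0.05) and Rpsa (0.07) in sham cord, and Rpl39 (0.27), Rpl7a (0.54), Rplp2 (0.47), Rps18 (0.18), Rps25 (0.21), Rps28 (0.15) and Rpsa (0.31) in injured cord.

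Leaving out each array gave 3 to 13 members higher and 4 to 8 lower on polysomes after injury, 18 to 32 lower in the interaction, and a subunit difference of 0.33 to 0.41 between fractions in injured cord. With the replicate number as a block, 36 members rose in total RNA and 20 were lower in the interaction. On polysomes 6 rose and 6 fell in that fit (Rps6 was no longer called, at -0.18). With the cord as a random block the consensus correlation was 0.00, which makes the fit nearly the same as without a block. No call of a named member changed there, which is therefore no check of the calls.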
